A study of Mus musculus and Homo sapiens with 20 samples.

Results

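The mES-only H3K27me3 domains were autosomal stretches that carried H3K27me3 peaks in both wild-type (WT) mouse embryonic stem (mES) cell libraries and shared no base with an H3K27me3 peak of either WT library of haematopoietic stem and progenitor cells (HSPCs). Bases covered in both mES libraries were joined over gaps of up to 1 kb and kept from a width of 3 kb. Of 15342 such mES domains, 2969 (19.4%) were mES-only, and the other 12373, called shared domains here, touched an HSPC peak. The mES-only domains spanned 15.42 Mb, or 0.644% of the known autosomal bases, against 113.5 Mb for the shared domains. The choice rested on H3K27me3 in the 4 WT libraries, so the H3K27me3 values below are descriptions without a test, whereas H2AK119ub was not used to choose the domains.

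The study profiled H3K27me3 and H2AK119ub by CUT&Tag, in which an antibody-tethered transposase tags the DNA around a histone mark, in cells with and without the 5-methylcytosine dioxygenase Tet2. The mES cells were a WT and a Tet2-/- (KO) line, grown with LIF and the inhibitors CHIR99021 and PD0325901 and cleared of feeder cells on gelatin before use. The HSPCs were lineage-negative c-Kit+ bone marrow cells of WT C57BL/6 mice and of Tet2-/- mice backcrossed to C57BL/6, 6 to 8 weeks old and of both sexes. Each of the 8 groups of mark, cell type and genotype held 2 libraries, and nothing in the labels says that they came from separate cultures or animals, so p-values measure only the spread between these libraries.

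H3K27me3, trimethylation of lysine 27 of histone H3, is written by Polycomb repressive complex 2 (PRC2), and H2AK119ub, monoubiquitylated histone H2A, by PRC1. Both marks are linked to gene silencing, and in embryonic stem cells they are best known for broad domains over CpG-rich promoters of developmental regulators. PRC1 variants can bind CpG-rich DNA without H3K27me3, and PRC2 can bind H2AK119ub, so the marks often but not always lie together.

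The sequences that follow show the stretch of 300 bases with the most CpG and no annotated exonic base in 5 mES-only domains and, for contrast, in the widest shared domain, each read from the plus strand of mm10 with every CpG in capitals. Positions in brackets are those of the stretches. The first domain is the widest of all, in the body of Pappa, with the stretch in an intron (chr4:65280084-65280383). The second domain holds the start of Ddx4, a germ-cell RNA helicase gene (chr13:112651930-112652229). The third holds that of Cxcl10, an interferon-induced chemokine gene (chr5:92349735-92350034), and the fourth that of Lsamp, a neuronal adhesion gene (chr16:39984728-39985027). The stretches do not hold these starts themselves, and that of the Cxcl10 domain lies in Art3. The fifth is the widest domain with H2AK119ub over at least 90% of its length in both WT HSPC libraries, nearest to Sik1 (chr17:31905548-31905847), and the sixth is the shared domain, nearest to Rhcg (chr7:79504960-79505259).
Pappa: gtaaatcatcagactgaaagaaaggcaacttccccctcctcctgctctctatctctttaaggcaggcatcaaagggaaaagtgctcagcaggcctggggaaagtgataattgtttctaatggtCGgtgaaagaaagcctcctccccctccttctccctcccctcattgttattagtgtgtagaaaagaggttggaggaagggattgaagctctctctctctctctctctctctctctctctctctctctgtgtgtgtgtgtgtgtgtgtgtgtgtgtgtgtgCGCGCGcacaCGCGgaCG
Ddx4: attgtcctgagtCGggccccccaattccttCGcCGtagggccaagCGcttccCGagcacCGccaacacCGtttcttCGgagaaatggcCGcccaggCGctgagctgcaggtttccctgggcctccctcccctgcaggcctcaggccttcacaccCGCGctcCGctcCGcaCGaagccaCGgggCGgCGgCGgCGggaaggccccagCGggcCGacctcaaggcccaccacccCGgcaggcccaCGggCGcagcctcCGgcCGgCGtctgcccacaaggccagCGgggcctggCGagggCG
Cxcl10: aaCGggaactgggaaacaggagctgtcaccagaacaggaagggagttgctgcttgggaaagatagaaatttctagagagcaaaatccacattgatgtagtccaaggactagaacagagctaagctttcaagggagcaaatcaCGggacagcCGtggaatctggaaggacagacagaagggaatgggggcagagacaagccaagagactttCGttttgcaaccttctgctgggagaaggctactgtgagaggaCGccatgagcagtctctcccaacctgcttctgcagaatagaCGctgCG
Lsamp: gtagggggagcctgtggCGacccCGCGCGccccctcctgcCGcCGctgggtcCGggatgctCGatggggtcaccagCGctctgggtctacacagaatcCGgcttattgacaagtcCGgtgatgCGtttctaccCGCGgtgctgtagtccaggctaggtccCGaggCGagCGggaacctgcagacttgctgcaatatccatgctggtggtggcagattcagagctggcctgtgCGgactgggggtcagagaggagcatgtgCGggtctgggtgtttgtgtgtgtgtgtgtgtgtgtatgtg
Sik1: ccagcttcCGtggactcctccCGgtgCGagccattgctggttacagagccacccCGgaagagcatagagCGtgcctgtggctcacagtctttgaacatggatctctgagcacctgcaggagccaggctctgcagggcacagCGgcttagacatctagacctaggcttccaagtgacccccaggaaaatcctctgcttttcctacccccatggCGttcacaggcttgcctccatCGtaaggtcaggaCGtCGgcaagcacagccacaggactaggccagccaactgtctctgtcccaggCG
Rhcg: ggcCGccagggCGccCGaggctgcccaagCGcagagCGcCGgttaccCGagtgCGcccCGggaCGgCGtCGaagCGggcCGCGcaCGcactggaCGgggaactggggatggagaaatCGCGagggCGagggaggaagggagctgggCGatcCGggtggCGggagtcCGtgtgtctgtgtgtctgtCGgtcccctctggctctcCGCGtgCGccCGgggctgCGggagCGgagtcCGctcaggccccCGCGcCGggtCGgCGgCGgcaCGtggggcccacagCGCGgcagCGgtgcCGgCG

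These stretches held 7 CpG in the Pappa domain, 31 in that of Ddx4, 7 in that of Cxcl10, 19 in that of Lsamp and 11 near Sik1. The shared domain had 44, and its greater width gives more stretches to choose from. Over whole domains, the median was 12.1 CpG per kb in mES-only domains (lower and upper quartiles 9.38 and 15.2), 14.9 in shared domains and 8.51 over all autosomes. The CpG observed/expected ratio had medians of 0.211, 0.242 and 0.194 in the same order, and the GC content was 47.9%, 49.7% and 41.9%. A CpG island, here any run of 200 bp with a GC content above 50% and an observed/expected ratio above 0.6, occurred in 1443 mES-only domains (48.6%) and in 73.3% of shared domains. Soft-masked repeats made up a median of 16.3% of a mES-only and 16.1% of a shared domain, below the 33.5% of the autosomes as a whole. Shared domains were wider, which gives an island more room. From 3 to 4 kb of width an island occurred in 38.6% of mES-only against 51.0% of shared domains, and from 6 kb upwards in 66.1% against 86.6%.

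The mES-only domains were short and mostly lay away from gene starts. Widths ran from 3.0 kb to 29.97 kb with a median of 4.305 kb, against a median of 6.399 kb and a maximum of 126.9 kb for the shared domains. Exons took 7.31% of their bases, introns 48.9% and intergenic sequence 43.7%. A start of a protein-coding gene lay inside 168 domains (5.66%), against 34.7% of shared domains. A further 1312 domains (44.2%) overlapped a protein-coding gene without its start and 1489 (50.2%) overlapped none. The median distance to the nearest such start was 52.0 kb, against 11.8 kb for shared domains. The nearest WT HSPC H3K27me3 peak was at a median of 11.1 kb, within 1 kb for 105 domains and within 10 kb for 1407. The 50 domains just below the width limit (2971 to 2999 bp) had H2AK119ub over 47.5% and 47.5% of their length in the WT mES libraries, and the 50 just above it (3000 to 3032 bp) over 53.5% and 49.8%.

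Of 20807 autosomal protein-coding genes, 177 (0.851%) started inside a mES-only domain and 4839 (23.3%) inside a shared one. Most genes of several lists of known Polycomb targets started in shared domains, and the rest in neither kind. With a background of 0.851%, a count of 0 in lists of this size is no result about them. None of 166 homeobox and other developmental transcription factor genes started in a mES-only domain, whereas 143 started in a shared one. The same was 0 and 26 of 33 for haematopoietic transcription factors, 0 and 15 of 20 for endothelial and early mesoderm regulators, 0 and 10 of 14 for trophectoderm and primitive endoderm regulators, 0 and 43 of 59 for Wnt, Fgf and Bmp ligands, and 0 and 38 of 48 for voltage-gated channels. Pluripotency genes counted 0 and 3 of 15, PRC1 and PRC2 subunit genes 0 and 9 of 29, and widely expressed genes 0 and 0 of 14. Listed genes that did start in a mES-only domain were Cd44 (1 of 29 haematopoietic receptors, with 9 in shared domains), Ddx4 (1 of 15 germline genes, with 6), Epha6 (1 of 48 Eph and semaphorin pathway genes, with 30), Gria4 (1 of 86 neurotransmitter receptors, with 63), and Slc2a2, Slc25a31, Slc9b2 and Slc39a8 (4 of 354 solute carriers, with 114).

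The cell type labels were checked at the starts of marker genes. Starts of 4 of 15 pluripotency genes lay under an H3K27me3 peak in both WT mES libraries and 12 of 15 in both WT HSPC libraries. For haematopoietic transcription factors the counts were 25 and 21 of 33, and for haematopoietic receptors 17 and 12 of 29. For H2AK119ub, pluripotency genes counted 11 of 15 in WT mES and 7 of 15 in WT HSPC libraries, opposite to H3K27me3. Haematopoietic transcription factors counted 20 and 20 of 33 and receptors 14 and 13 of 29, so H2AK119ub gave no check of the labels. Starts of widely expressed genes counted 2 and 6 of 14 for H3K27me3, and for H2AK119ub 4 of 14 in WT mES and 13 of 14 in WT HSPC libraries. Histone mark peaks give no expression and do not check the Tet2 deletion. The lists held 80835 to 166255 autosomal peaks and covered 5.78% to 10.8% of the autosomes, and read depth per library is unknown. In 3 groups the lists differed in length between replicates. H3K27me3 peaks covered 147.8 Mb in KO mES replicate 2 against 212.2 Mb in replicate 1, and H2AK119ub peaks covered 138.4 Mb in WT HSPC replicate 2 against 170.7 Mb in replicate 1. The H3K27me3 lists of WT mES cells, which define the domains, covered 186.6 Mb and 229.6 Mb, and the second alone would give 5174 domains.

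The first question was whether the mES-only H3K27me3 domains also carried the PRC1 mark. H2AK119ub peaks covered a mean of 55.8% and 53.7% of domain length in the WT mES libraries, 5.17 and 5.2 times the percentage of the autosomes covered in the same libraries. The mean was 54.7% ± 1.51 (SD, n = 2), against 70.1% ± 1.15 in shared domains. H2AK119ub touched 2704 mES-only domains (91.1%, against 97.9% of shared domains) in both libraries. It covered 50% or more of 1415 (47.7%, against 71.8%) in both, and was at 0 in both for 107 (3.6%, against 0.727%). The 107 domains without H2AK119ub were poor in CpG, with a median of 7.05 per kb, and 16.8% held an island, against 13.9 per kb and 58.1% for the 1415 with the most H2AK119ub. The 5 widest of them had their nearest or overlapping gene at Zeb2, Stx16, Gm6793, Pcdh15 and Osr1, with widths of 6.93 to 8.37 kb and WT H3K27me3 over 67.3% to 100.0%.

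In HSPCs, H2AK119ub covered less of the same domains. The WT HSPC libraries had a mean of 16.7% and 11.0% and the WT mES libraries 55.8% and 53.7%, so the groups did not overlap and differed by 40.8 percentage points. The exact two-sided permutation test over the 6 assignments gave p = 0.33, the smallest that 2 against 2 libraries allow (Benjamini-Hochberg p = 0.833 over 5 tests). H2AK119ub was lower in WT HSPCs, with groups that did not overlap and means at least 10 percentage points apart, in 2426 domains (81.7%), against 77.7% of all 15342 mES domains, and higher in 18 (0.606%, against 1.33%). Coverage of mES-only minus shared domains was -15.4 percentage points in WT mES cells and -19.9 in WT HSPCs, where shared domains averaged 33.8%. The difference between mES-only and shared domains was thus smaller in mES cells than in HSPCs by 4.6 percentage points (exact permutation p = 0.33, the smallest possible). This rested on a single defining library, since with the domains taken from WT mES H3K27me3 replicate 2 alone it was 0.56, and it was 1.56 when gaps of up to 2 kb were joined. H2AK119ub did not disappear from the domains in HSPCs. It covered 2.35 and 1.91 times the autosomal percentage in the WT HSPC libraries. It was present in both for 1049 domains (35.3%, against 69.9% of shared domains) and at 0 in both for 1249 (42.1%, against 14.5%). For shared domains H2AK119ub was at 5.4 and 5.06 times the autosomal percentage in WT HSPC and 6.56 and 6.71 times in WT mES libraries.

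**Figure D1:**
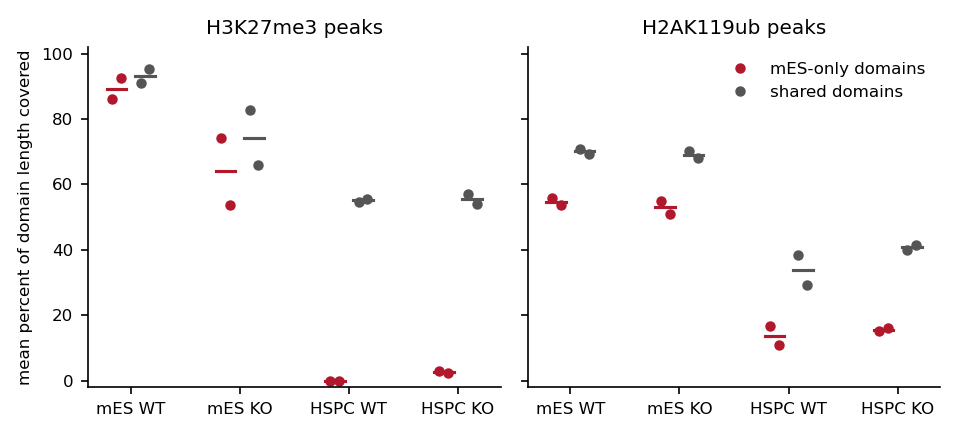
Mean percent of domain length under H3K27me3 (left) or H2AK119ub (right) peaks in each library, for 2969 mES-only (red) and 12373 shared domains (grey). Points are libraries, and bars are the means of 2. H3K27me3 of mES-only domains was 0 in WT HSPCs by the choice of domains, and H2AK119ub of mES-only domains was 55.8% and 53.7% in WT mES cells against 16.7% and 11.0% in WT HSPCs.

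Domains with much H2AK119ub in HSPCs also had much in mES cells. In 118 domains (3.97%, against 22.7% of shared domains), H2AK119ub covered 50% or more in both WT HSPC libraries. In 111 of these it did so in both WT mES libraries too, where its mean over the 118 was 90.6% and 89.8%. They had a median of 15.4 CpG per kb, and 10.2% held a protein-coding start, against 10.7 CpG per kb and 3.28% for the 1249 domains with no H2AK119ub in WT HSPCs. The 5 widest with at least 90% in both WT HSPC libraries were nearest to Sik1 or lay inside Cdh23, Slc27a1, Cotl1 and Soga1. Cotl1 encodes an actin-binding protein, Slc27a1 a fatty acid transporter and Cdh23 a cadherin of sensory hair cells. The Cdh23 domain (chr10:60367406-60371856, 71.4% exonic) had H2AK119ub over 100.0% and 98.6% in WT mES cells, 97.5% and 100.0% in KO mES cells, 100.0% and 96.2% in WT HSPCs and 100.0% and 100.0% in KO HSPCs. Its H3K27me3 was at 0 in WT HSPCs by the choice of domains, and at 0 in both KO HSPC libraries, as in 78.0% of mES-only domains.

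**Figure D2:**
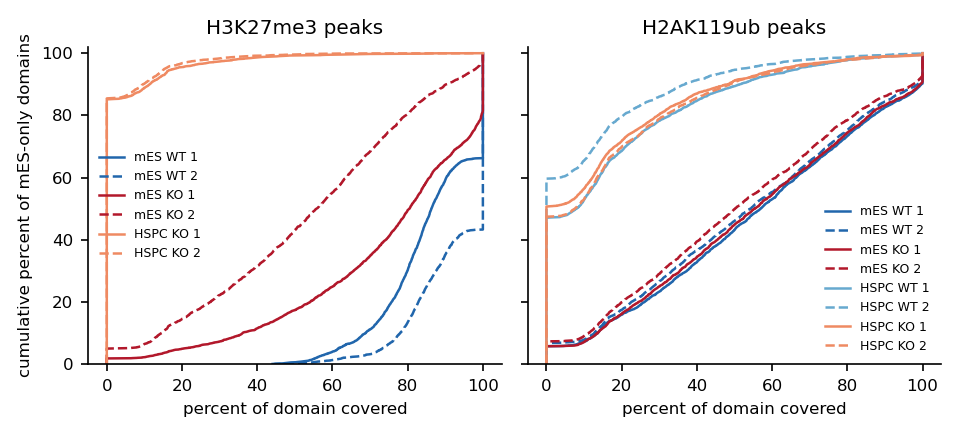
Cumulative percent of the 2969 mES-only domains (y axis) with up to a given percent of their length covered (x axis) by H3K27me3 (left) or H2AK119ub (right) peaks, a line per library with replicate 1 solid and replicate 2 dashed. In the HSPC libraries the H2AK119ub curves start high because 1398 and 1771 domains had none in WT replicates 1 and 2, whereas the 4 mES curves lie close together.

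Domains that held a protein-coding start had more H2AK119ub in HSPCs than the others, with no test. Across the 168, the mean coverage was 26.2% and 18.4% in the WT HSPC libraries against 16.2% and 10.6% across the 2801 without a start, while in WT mES cells it was 55.3% and 54.8% against 55.8% and 53.6%. H2AK119ub was present in both WT HSPC libraries in 57.1% of the former and 34.0% of the latter. The starts of 13 of 14 widely expressed genes also lay under an H2AK119ub peak in both WT HSPC libraries, so such a peak does not set these starts apart. The 177 genes were then read by name. The groups of genes that follow were put together after their values had been seen, are not exhaustive and carry no test.

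In the first group, of interferon responses, 9 of the 168 domains held the starts of Irgm1, Irgm2 with Igtp, Gbp5, Gbp7, Ifit1 with Ifit1bl2, Nlrc5, Cxcl10, Slfn2 and Slfn9. The Irgm and Gbp genes encode interferon-inducible GTPases, and Nlrc5 the transactivator of MHC class I genes. In 8 of the 9, H2AK119ub was present in both WT HSPC libraries, with a median coverage of 29.0%. At Cxcl10 (minus strand, chr5:92344311-92350063) H2AK119ub covered 81.5% and 87.8% in WT mES, 89.7% and 87.5% in KO mES, 84.9% and 70.2% in WT HSPC and 83.6% and 68.4% in KO HSPC libraries. All 8 values were high, and the genotypes overlapped in both cell types. At Irgm1 (minus strand, chr11:48868083-48876705) they were 54.0% and 70.3%, 65.7% and 73.3%, 42.7% and 56.6%, and 56.5% and 54.9% in the same order. Gbp5 and Ifit1 had little in mES cells. The Gbp5 domain had 0.0% and 7.7% in WT mES against 21.9% and 23.5% in WT HSPC libraries, and the Ifit1 domain 9.09% and 0.0% in WT mES libraries and none in WT HSPCs.

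A second group of 16 of the 168 domains held starts of other blood cell and NF-kB pathway genes. These were Zap70 and Cd247 of T cell receptor signalling, Grap2, Batf, Cd44, Lcp1, Gypc (a red cell membrane glycophorin), Gp9 (a platelet von Willebrand factor receptor subunit), Hdac7, Nrros, Rin3, Stx11, Fgl2, Nfkb1, Nfkbiz and Ikbkb. H2AK119ub was present in both WT HSPC libraries in 14 of the 16 and in neither for 0, with a median coverage of 35.3%. At Nrros (minus strand, chr16:32162932-32166130) it covered 100.0% and 98.1% in WT mES and 63.4% and 92.2% in WT HSPC libraries. At Gp9 (plus strand, chr6:87773827-87781111) it covered 77.2% and 73.5% in WT mES and 55.8% and 62.3% in WT HSPC libraries. H3K27me3 at Gp9 was also at 0 in both KO HSPC libraries, as in most mES-only domains. At Cd44 (minus strand, chr2:102898669-102903104), the gene of a hyaluronan receptor, H2AK119ub covered 59.1% and 59.6% in WT mES, 59.7% and 50.1% in KO mES, 33.8% and 36.4% in WT HSPC and 40.4% and 53.5% in KO HSPC libraries. The Cd44 domain differed from these in that KO HSPC H3K27me3 peaks covered 24.1% and 11.3% of it.

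The next group was of neural genes. The 9 domains at the starts of Cntn4, Cntn5, Cntnap4, Cntnap5b, Cntnap5c, Lsamp, Cdh7, Epha6 and Gria4, which encode neuronal adhesion molecules, an Eph receptor and an AMPA-type glutamate receptor subunit, had no H2AK119ub in either WT HSPC library. The same was true of 24.4% of the 168 domains with a start. None of the 9 had H2AK119ub in a KO HSPC library. In WT mES cells their median H2AK119ub was 24.5%, against 54.4% over the 168 domains with a start, while KO mES H3K27me3 had a median of 90% against 75.3%. At Lsamp (plus strand, chr16:39981800-39989138) H2AK119ub covered 13.5% and 14.9% in WT versus 11.0% and 15.3% in KO mES cells, and H3K27me3 88.3% and 78.3% in KO mES and 19% and 15.8% in KO HSPC libraries. At Epha6 (minus strand, chr16:60603765-60608631) H2AK119ub covered 51.9% and 52.1% in WT versus 50.0% and 54.6% in KO mES cells, the WT values being the highest of the 9, and H3K27me3 covered 98.4% of it in both KO mES libraries. KO HSPC H3K27me3 also covered 25.6% and 16.5% at Epha6 and 26.1% and 29.4% at Cntnap4. It covered 20.6% and 0.0% at Gria4 and 0.0% and 27.3% at Cntn5, and none of the rest of the 9. Pcdhb7, a neuronal protocadherin gene outside this group, also had 0.0% and 0.0% in WT HSPCs. It was otherwise unlike them, with H2AK119ub over 96.3% and 91.9% of its domain in WT mES cells and over 15.7% and 0.0% in KO HSPCs.

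The 8 domains of germ-cell genes, at Ddx4, Brdt, Nobox, H1foo, Acr, Pdilt, Slc25a31 and the testis histones Hist1h2aa and Hist1h2ba, had medians of 69.1% in WT mES cells and 5.36% in WT HSPCs. They varied, since Pdilt had 42.0% and 39.4% and Nobox 44.2% and 52.0% in WT mES cells. At Acr, the gene of the sperm protease acrosin (plus strand, chr15:89568013-89571092), H2AK119ub covered 98.3% and 89.3% in WT mES and 0.0% and 0.0% in WT HSPC libraries. H1foo, an oocyte linker histone gene, was the exception with 53.7% and 31.7% in WT HSPCs. A last group of 7 domains at photoreceptor and epidermal genes (Pde6b, Cngb1, Ivl, Krtdap, Krtap31-2, Krtap29-1 and Col17a1) was mixed. Pde6b, a photoreceptor phosphodiesterase gene (plus strand, chr5:108384311-108391550), had H2AK119ub over 87.1% and 76.8% in WT mES cells and over 54.4% and 0.0% in WT HSPCs, whereas Cngb1, a rod channel gene, had 100.0% and 100.0% in WT mES cells and 0.0% and 0.0% in WT HSPCs.

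**Figure D3:**
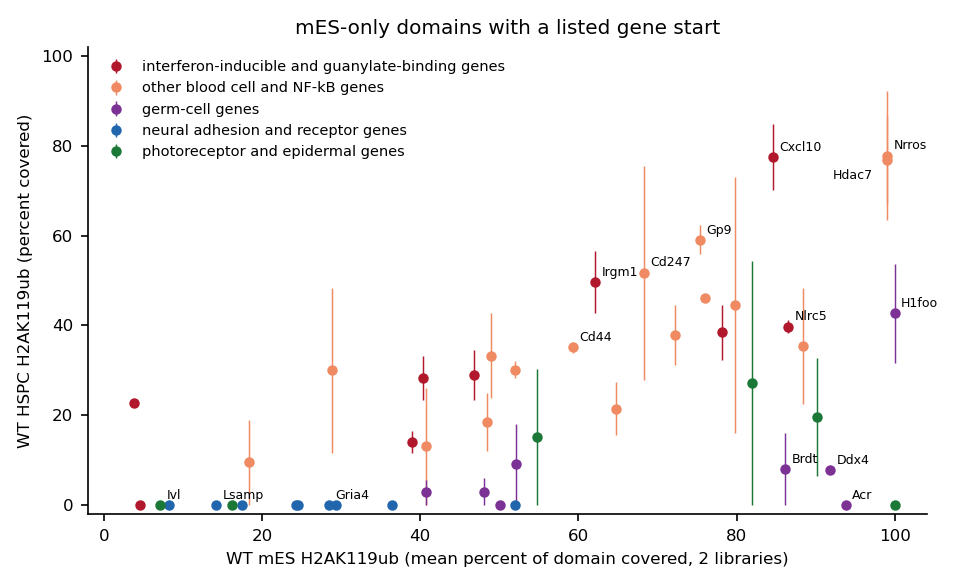
WT HSPC H2AK119ub coverage (y axis, mean and range of 2 libraries) against WT mES H2AK119ub coverage (x axis, mean of 2 libraries), in percent of domain length, for the mES-only domains at the starts of the named gene groups. The groups were put together after their values had been seen. Domains of the 9 neural genes (blue) lie at 0 in WT HSPCs, and those of interferon (red) and blood cell (orange) genes mostly lie above it, as at Cxcl10 with 84.9% and 70.2% in the 2 libraries.

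The second question was what loss of Tet2 did to H2AK119ub here. In mES cells nothing was resolved on average. The domain means were 55.8% and 53.7% in WT versus 54.9% and 51.1% in KO libraries, so the groups overlapped, and the difference of -1.7 percentage points had an exact permutation p = 0.667 (Benjamini-Hochberg p = 0.833). The difference became 0.182 without KO replicate 2 and -0.285 without chromosomes 6 and 13. Domain by domain, 482 (16.2%) were lower in KO and 346 (11.7%) higher by the same rule, against 12.6% and 9.28% of all mES domains. The gap to shared domains was likewise unresolved, with a change of -0.709 percentage points (exact permutation p = 0.667) that turned to 0.0937 without KO replicate 2.

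The largest negative differences clustered on distal chromosome 13. All 5 lay between 113118744 and 113630839, nearest to BC067074 (2 domains), Snx18 and Gzma or in Gzmk. Gzma and Gzmk encode granzymes of cytotoxic lymphocytes. In the domain at chr13:113392061-113397635, near BC067074, H2AK119ub covered 91.0% and 90.6% in WT versus 0.0% and 0.0% in KO mES libraries, and KO H3K27me3 18.0% and 0.0%. At Gzmk (chr13:113196092-113199902) the values were 100.0% and 100.0% in WT versus 33.5% and 16.7% in KO. Beyond 96 Mb of chromosome 13, the 50 mES-only domains had a mean of 68.3% and 67.4% in WT against 33.4% and 35.1% in KO libraries, and the 106 before it 51.3% and 46.9% against 51.5% and 43.1%. Beyond 81 Mb of chromosome 6, the 146 domains had 69.4% and 66.7% in WT against 52.5% and 50.7% in KO libraries, and the 37 before it 51.9% and 48.0% against 50.9% and 47.4%. The positions of 81 and 96 Mb came from earlier results on these lists and are no test. Chromosomes 6 and 13 were the only autosomes on which the WT and KO means of H2AK119ub in mES-only domains did not overlap. Over the whole of chromosome 13, H2AK119ub peaks covered 8.71% and 8.27% in WT against 7.1% and 6.55% in KO mES libraries. Over chromosome 6 they covered at least 11.5% in both WT libraries against 9.61% and 8.88% in KO. For H3K27me3 of mES-only domains, WT and KO means overlapped on no autosome. KO H3K27me3 was 53.3% and 37.8% beyond 96 Mb of chromosome 13 against 69.1% and 48.5% before it. It was likewise lower beyond 81 Mb of chromosome 6. Ddx4 lies beyond 96 Mb of chromosome 13, and H2AK119ub of its domain (chr13:112651525-112658011) went from 98.4% and 85.2% in WT to 55.1% and 43.2% in KO libraries.

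The largest positive differences were scattered. They lay nearest to Spred2, Atxn7l3b, Tbc1d22a, Slc34a2 and Gimap8, on 5 chromosomes and at no gene body. In the domain nearest to Spred2, a gene for an inhibitor of Ras-MAPK signalling (chr11:19769198-19773641), H2AK119ub covered 17.4% and 0.0% in WT versus 72.8% and 80.3% in KO mES libraries. None of the 5 had H2AK119ub in a KO HSPC library.

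In HSPCs, H2AK119ub of the mES-only domains was 16.7% and 11.0% in WT versus 15.1% and 16.2% in KO libraries. The difference of 1.75 percentage points had an exact permutation p = 1.0, and it turned to -1.1 without WT replicate 2, the library with the shortest list. In the shared domains the KO libraries (40.7% ± 1.06, n = 2) lay above the WT libraries (33.8% ± 6.52). By domain, 260 mES-only domains (8.76%) were higher in KO against 21.1% of all mES domains, and 134 (4.51%) were lower against 3.21%. The part of the short WT list in these counts was not tested.

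H3K27me3 itself covered less of the domains in KO mES cells. The WT libraries had 86.2% and 92.4% and the KO libraries 74.3% and 53.8%, with means of 89.3% ± 4.44 and 64.1% ± 14.5 (SD, n = 2). Because the WT values chose the domains, WT coverage had to be high and this difference is no finding. By the same rule 1654 domains (55.7%) were lower and 26 (0.876%) higher in KO, against 51.0% and 0.626% of all mES domains, which were chosen on the same WT libraries. Shared domains had 82.7% and 66.0% in KO. Among domains of 3 to 4 kb the KO values were 72.1% and 51.2% for mES-only and 77.2% and 56.6% for shared domains, and from 6 kb upwards 78.7% and 59.6% against 86.2% and 72.0%.

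Nearly all domains were still found in KO mES cells. H3K27me3 peaks touched 2808 (94.6%, against 98.0% of shared domains) in both KO libraries and covered 50% or more of 1668 (56.2%, against 75.3%) in both. No peak lay in either KO library for 41 (1.38%, against 0.323%). Among the widest of these 41 were domains in the bodies of Pdlim3, Sox5 and Zbtb20 and nearest to Zfp608. Sox5 and Zbtb20 encode developmental transcription factors. The Sox5 domain (chr6:143960037-143965148) had H3K27me3 over 90.1% and 100.0% in WT mES cells. Its H2AK119ub covered 100.0% and 99.8% in WT versus 48.7% and 69.5% in KO mES cells. It lies beyond 81 Mb of chromosome 6, where the mean H2AK119ub of all 146 domains was lower in KO. The Pdlim3 domain, on chromosome 8, was also lower in both KO libraries. At Zbtb20 the genotypes overlapped, with 87.3% and 48.1% in WT versus 39.5% and 95.3% in KO mES cells. The Zfp608 domain had no H2AK119ub in any library. The 41 as a group had H2AK119ub over 56.1% and 52.0% in WT versus 34.8% and 30.0% in KO mES libraries, against 57.4% and 55.4% and 59.3% and 56.2% for the 1668 with the most KO H3K27me3. At the other end, the domain of Nobox, an oocyte transcription factor gene, had H3K27me3 over 100.0% in both KO libraries.

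The KO HSPC libraries were not used to choose the domains, and they too had almost no H3K27me3 there. Coverage was 2.89% and 2.37%, or 0.392 and 0.347 times the autosomal percentage, against 57.1% and 54.1% of the shared domains. KO HSPC peaks touched 441 (14.9%) and 432 (14.6%) domains. Peaks lay in 220 (7.41%, against 84.4% of shared domains) in both libraries and in 2316 (78.0%, against 7.73%) in neither. Only 7 (0.236%, against 51.5%) were covered to 50% or more in both. By the rule above 185 domains (6.23%) were higher in KO than in WT HSPCs, against 12.6% of all mES domains, and none could be lower. The 220 domains with a peak in both KO libraries had H2AK119ub over 11.7% and 6.74% in WT HSPCs, against 16.3% and 10.7% in the 2316 with none. Shared domains with at most 10% of their length under WT HSPC peaks, 693 in number, had 6.35% and 5.0% in KO HSPCs, and the 105 mES-only domains within 1 kb of a WT HSPC peak had 5.95% and 5.16%.

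The widest domains show how the marks combined. The 2 at Pappa, the gene of a metalloprotease that cleaves insulin-like growth factor binding proteins, were 30.0 and 24.5 kb wide and followed each other (chr4:65256667-65286636 and chr4:65230599-65255111). The wider one had H3K27me3 over 98.1% and 98.0% in WT versus 78.3% and 72.1% in KO mES cells, and H2AK119ub over 29.0% and 24.5% in WT versus 13.7% and 14.6% in KO mES cells. H2AK119ub was thus on a small part of it and lower in both KO libraries, and in HSPCs it covered 1.67% in 1 KO library and nothing in the other 3. By contrast, the domain over the read-through locus Gm20388 (chr8:122633101-122657559) had H2AK119ub over 100.0% in all 4 mES libraries and over 80.2% and 83.2% in WT versus 82.4% and 89.4% in KO HSPC libraries. The domain in the body of Nlrc5 (chr8:94479204-94506867) lay between them, with 80.8% and 76.7% in WT mES and 38.9% and 30.2% in WT HSPC libraries. The Wwox domain (chr8:115190656-115215055), in a tumour suppressor gene at a fragile site, had 77.8% and 77.8% in WT versus 54.6% and 47.0% in KO mES cells. Of the rest of the 10 widest, 1 overlapped the end of Bco1 but lay mostly outside it, and the others lay in Prdm16, over the start of Rin3 and nearest to Tmem132c and Irx2, with KO mES H3K27me3 over 74.2% to 92.2%.

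Of the 10 widest, 4 lay on chromosome 8, which also held 335 (11.3%) of all mES-only domains. That was 2.67 per Mb against 0.786 to 1.57 (median 1.19) on the other 18 autosomes. Shared domains were also dense there, at 7.07 per Mb against 3.06 to 8.78 (median 4.93) on the other autosomes. Of all mES domains on chromosome 8, 27.4% were mES-only, a higher share than on any other autosome (median 20.1%). The excess was thus in part one of mES domains in general. The density of mES-only domains varied along chromosome 8, from 0.85 per Mb between 60 and 80 Mb to 6.15 per Mb between 100 and 120 Mb. The length covered by H3K27me3 in WT mES cells relative to WT HSPCs was also highest on chromosome 8, at 1.84 against 1.01 to 1.55 elsewhere, and for H2AK119ub it was 2.4 against 1.25 to 2.35. In the KO cells, which did not choose the domains, these ratios were 1.56 against 0.815 to 1.47 and 2.14 against 1.17 to 1.63. Reads per chromosome are not part of the lists, and the cause was not tested. The domains of chromosome 8 had H2AK119ub over 62.2% and 60.5% in WT mES and 11.3% and 7.44% in WT HSPC libraries, against 55.0% and 52.8% and 17.4% and 11.5% elsewhere. Without chromosome 8 the difference between WT mES cells and WT HSPCs was 39.4 percentage points.

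**Figure D4:**
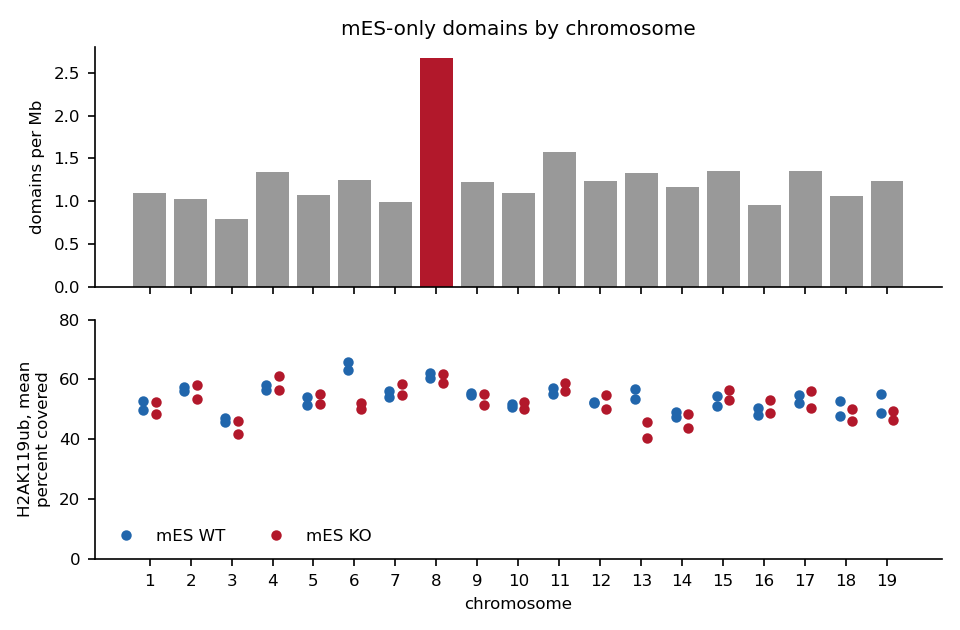
Number of mES-only domains per Mb of known sequence (top) and mean percent of their length covered by H2AK119ub (bottom, a point per library, blue WT and red KO mES cells) on each autosome. Chromosome 8 stands at 2.67 domains per Mb, and the WT and KO points separate on chromosomes 6 and 13.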

How the data were processed

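Peak lists of 16 mouse libraries were used as deposited, and 4 K562 libraries of the series were not analysed here. The deposited files give chromosome, start and end of each peak with no score, count or signal. The authors used Trimmomatic for trimming, bowtie2 for alignment to mm10 and the Drosophila spike-in, Picard for duplicates and MACS2 in broad mode for peaks, per the study's methods. The submitters' processing notes name HOMER 4.9 and not MACS2, so the caller behind the deposited lists, on which every coverage value depends, is not certain. Positions carry no spike-in scaling, and lists are 1 per library. Depth, and with it counting error, is unknown.

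Coverage is the percent of a domain's length under peaks, averaged over domains per library. Groups came from the labels. Values were compared by two-sided exact permutation tests, adjusted over 5 tests. A domain was called when the 2 libraries of a group did not overlap those of the other and means differed by 10 percentage points or more. Gene starts, exons and islands came from GENCODE vM21 and GRCm38, whose chromosomes match mm10, and the start is the outermost annotated one. Sequences were read from GRCm38 as well. Python 3.11.15, numpy 2.4.6, pandas 2.3.3 and matplotlib 3.10.9 were used. The interval steps and the call rule were tested on simulated peaks.

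The rule for the domains and the gene lists were chosen with earlier results of these data known. Named were the 10 widest domains, listed genes with a start inside, the 5 largest negative and positive differences of H2AK119ub in KO mES cells among called domains, the 5 widest without KO mES H3K27me3, and the 5 widest without WT mES or with at least 90% WT HSPC H2AK119ub. Gene groups of interferon, blood cell, germ-cell, neural, photoreceptor and epidermal genes were added after values were seen. A few of the named results are not reported here. Alternatives changed joining, width, the HSPC overlap rule, a 1 kb peak minimum, chromosomes, weighting, the call minimum, single libraries and the replicate block.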

Additional observations from a re-analysis of the deposited data

How the results depend on the processing

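The fall of H2AK119ub from WT mES cells to WT HSPCs, and its difference between mES-only and shared domains, kept their direction in 17 of 17 alternatives each (without single libraries 33.2 to 43.7 and 0.56 to 6.37 percentage points), and no alternative gave a p below 0.33. KO against WT mES cells kept its direction in 16 of 17 alternatives (-1.7 percentage points; leaving out single libraries gave -3.59 to 0.182), and KO against WT HSPCs in 16 of 17 (1.75; -1.1 to 4.59). The KO change of the gap to shared domains, -0.709, turned to 0.146 with gaps up to 2 kb joined and ranged from -1.51 to 0.0937 without single libraries. H3K27me3 in KO mES cells (64.1%) ranged from 50.8% to 74.8% over 14 alternatives. All lay within 1 SD of the 2 KO libraries, but this SD was wide at 14.5. Leaving out 1 of these 2 libraries cannot move the mean beyond it, so those alternatives are no check.

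The number of domains, 2969, was 5521 from a width of 2 kb, 1066 from 5 kb, 5129 when an HSPC peak had to be in both WT lists, and 3515 to 5174 with 1 WT mES list. Autosomes without chromosome 8, or 1 WT HSPC list (3714 and 3846 domains), were added after seeing the data. H3K27me3 in KO HSPCs (2.63%) was 3.08% without joining, 2.09% with 2 kb gaps, 3.12% from 2 kb, 6.29% with peaks required in both WT lists, 1.94% with no WT HSPC peak within 5 kb and 3.49% with peaks of at least 1 kb; with 1 WT HSPC list it was 3.89% and 4.31%, and over all single libraries left out it ranged from 2.28% to 4.31%.

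Called shares stayed within 1.5 times in 78 of 88 alternatives. Domains higher in WT HSPCs than in WT mES cells (0.606%) were 0.375% from 5 kb, 0.975% with peaks required in both WT lists and 0.338% with none within 5 kb. Domains with more H3K27me3 in KO HSPCs (6.23%) were 9.53% with peaks required in both WT lists. At a minimum difference of 25 points, H2AK119ub was lower in KO mES cells in 5.86% (3.4% of all mES domains) and higher in 3.0% (1.7%), lower in KO HSPCs in 1.35% (0.678%) and higher in 2.76% (5.92%), higher in WT HSPCs than in WT mES cells in 0.37% (0.378%), and KO HSPC H3K27me3 was higher in 2.22% (5.46%). The cause of these moves was not tested beyond the change in domains that each setting makes. Gene starts within 1 kb of a domain numbered 190 instead of 177.

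Replicate numbers in the labels only name libraries. Their differences over the domains correlated at 0.0387 between WT and KO mES H2AK119ub and -0.0211 in HSPCs. With the replicate block, the change in mES cells stayed -1.7 and the sign-flip test over 2 pairs could not pass a threshold of 0.05.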
